A study of Saccharomyces cerevisiae with 73 samples.

Results

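The genes described here are 38 genes of DNA replication and of the step from G1 into S phase in budding yeast, chosen by name from the 5538 genes with a probe. All 38 had 1 probe each. They comprise 11 genes of origin recognition and helicase loading, 6 of polymerases and primase, 6 of the sliding clamp, its loader, flap removal and ligation, 3 of single-strand binding protein A, 4 of nucleotide supply, 5 of mismatch repair and cohesin and 3 of the transcription factors of G1/S.

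In late G1, yeast cells commit to division when the factors SBF (Swi4 with Swi6) and MBF (Mbp1 with Swi6) switch on a large group of genes, many of them for replication. Origins of replication are bound by the origin recognition complex, on which Cdc6 and partner proteins load the ring of Mcm helicase subunits during G1. Firing then brings in Cdc45 and the polymerases, while ribonucleotide reductase makes the deoxynucleotides. Where a transcript peaks at one phase of the cycle, its level in a culture moves both with the share of cells passing through that phase and with the amount made per cell. In bulk samples such as these, fewer cells of a kind and less RNA per cell cannot be told apart.

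The strain was KCN118, of mating type alpha and carrying the ade2 allele, grown at 28 °C in complete synthetic medium with dextrose, amino acids and inositol. Cells were filtered, washed and resuspended in 1 of 13 media, each a single culture sampled after 15, 30, 60, 120 and 240 min, and every array set the shifted cells against cells from before the shift (t = 0). Dextrose media (SD) came without amino acids (SD and SD+ino, the latter with inositol), with all of them (SD+aa, without inositol), or with the amino acids LIVWHM or ARNCQGKPSDEFTY alone, in letter code, and inositol. Ethanol media (SEtOH) and galactose media (Sgal) were each made in 4 forms, with and without all amino acids and with and without inositol. There were thus 5 dextrose, 4 ethanol and 4 galactose cultures. All cultures carried the ade2 allele and none was an unshifted culture followed over time, so the filtering and washing of the shifted cells are part of every value, whereas the t = 0 cells were spun down. SD+aa, which held dextrose and all amino acids and lacked inositol only, was the culture closest to the starting medium.

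Values are log2 ratios to t = 0, so that -1 is a 2-fold lower transcript level than before the shift. The deposited values were read as log10 ratios, but neither their base nor their direction is stated. The direction was taken from the dyes and from the signs of ribosome assembly and stress response genes. A base of 2 would divide all log2 values by 3.32 and leave the p-values as they are, and were the ratio inverted all signs would turn. No dyes were swapped, so a dye effect can add to a ratio to t = 0 but drops out of differences between media. The number of cultures, 1 for each medium, limits the precision. The 73 arrays for 65 combinations of culture and time include 8 repeat arrays of the same cultures. Of 2774 values of the 38 genes, 30 were missing. Below, the early level of a gene in a culture is its mean log2 ratio at 15 and 30 min, the late level its mean at 120 and 240 min, and the course is late minus early. Group values are means over cultures from limma with SE (±), and a gene rose, fell or differed where its p-value, adjusted over all genes tested, was under 0.05.

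The replication and G1/S genes moved in opposite order in the carbon sources. In dextrose without amino acids they were low within 15 min and back near the starting level by 60 min, whereas in ethanol and galactose they started near the starting level and went down over 4 h. In SD the median of the 38 genes was -0.57, -0.52, -0.02, -0.11 and -0.10 at 15, 30, 60, 120 and 240 min. The same medians in SD+ino were -0.45, -0.24, 0.01, -0.20 and -0.12. Both cultures were lowest at 15 min and no lower than -0.20 from 60 min on.

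With ARNCQGKPSDEFTY the median went from -0.63 at 15 min and -0.51 at 30 min to -0.14 at 60 min and -0.04 at 240 min. With LIVWHM it went from -0.30 through -0.20, -0.12 and -0.11 to -0.07. In SD+aa it was -0.13 at 15 min and between -0.01 and 0.02 afterwards. The early dip was thus deepest in the 3 dextrose cultures SD, SD+ino and ARNCQGKPSDEFTY, shallower with LIVWHM and smallest with all amino acids.

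In ethanol, by contrast, the median at 15 min lay between -0.10 and -0.06 in the 4 cultures. At 30 min it was -0.28 in SEtOH, -0.25 in SEtOH+ino, -0.31 in SEtOH+aa and -0.21 in SEtOH+aa+ino, and at 60 min -0.61, -0.48, -0.42 and -0.55 in the same order. By 240 min it had reached -0.96, -0.72, -0.78 and -0.84. The galactose cultures Sgal, Sgal+ino, Sgal+aa and Sgal+aa+ino had medians of -0.04, 0.03, -0.13 and -0.18 at 15 min, of -0.57, -0.35, -0.53 and -0.62 at 60 min and of -0.89, -0.57, -0.88 and -0.94 at 240 min. Sgal+ino was the highest of the 4 at each of these 3 times. The median of all genes stayed between -0.17 and 0.10 in every culture and at every time.

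**Figure D1:**
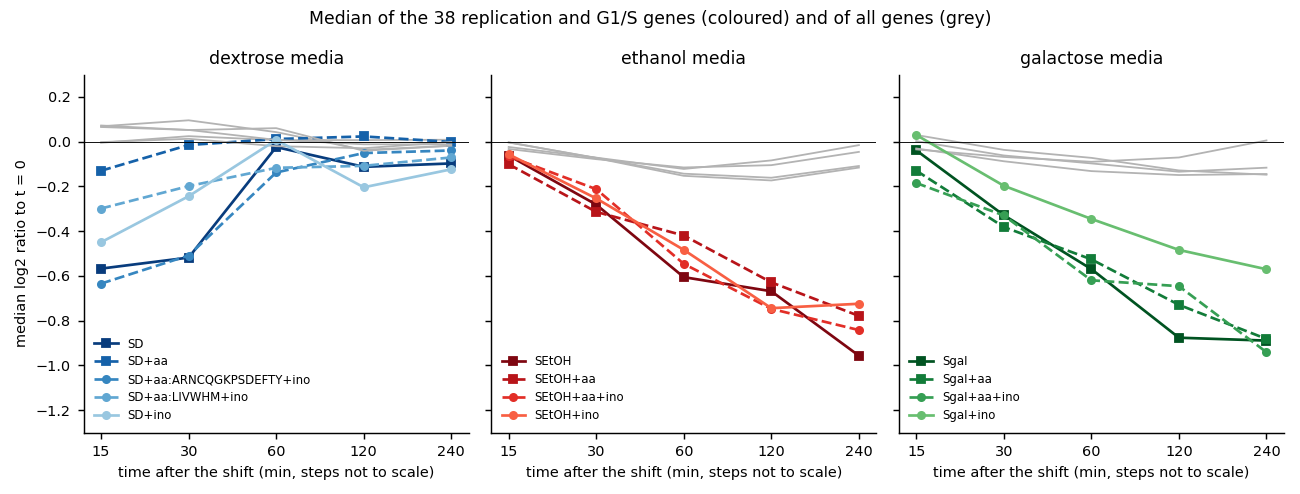
Median log2 ratio to t = 0 (vertical axis) of the 38 replication and G1/S genes in each culture (coloured lines and points, solid without and dashed with amino acids, circles with inositol) and of all genes in the same cultures (grey) at 15 to 240 min after the shift. The SD, SD+ino and ARNCQGKPSDEFTY cultures start at -0.57, -0.45 and -0.63 and return by 60 min, while the ethanol and galactose cultures end between -0.96 and -0.57.

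Counting single genes gave the same order in time. In SD, 9 of the 38 genes were 2-fold or more below t = 0 at 15 min (14.8% of all genes), 8 at 30 min (14.4%) and 0 from 60 min on (10.2%, 4.37% and 0.344% of all genes at 60, 120 and 240 min). In SD+ino there were 9 at 15 min (14.3% of all genes) and 2 at 30 min (12.5%), and with ARNCQGKPSDEFTY 10 (14.3%) and 8 (13.4%) of 36. At 240 min no dextrose culture had any. In ethanol the count at 240 min was 18 in SEtOH (21.6% of all genes), 13 in SEtOH+ino (19.4%), 14 in SEtOH+aa (19.7%) and 17 in SEtOH+aa+ino (21.6%), against 0 or 1 at 15 min. In galactose it was 17 of 37 in Sgal (22.6%), 5 in Sgal+ino (12.1%), 18 in Sgal+aa (23.1%) and 18 in Sgal+aa+ino (27.1%).

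The lowest value of a gene over the 5 times fell at 15 or 30 min for 31 of 38 genes in SD (41.4% of all genes), 29 of 38 in SD+ino (46%) and 28 of 36 with ARNCQGKPSDEFTY (47.6%). With LIVWHM it did so for 21 of 35 (43.8%) and in SD+aa for 22 of 37 (54.8%), where the share was near that of all genes. In ethanol it fell at 120 or 240 min for 32 of 38 genes in SEtOH (51.3% of all genes), 33 in SEtOH+ino (50.2%), 33 in SEtOH+aa (47.2%) and 32 in SEtOH+aa+ino (46.2%). In galactose it did so for 28 of 37 in Sgal (50%), 27 of 38 in Sgal+ino (49.7%), 33 of 38 in Sgal+aa (45.4%) and 25 of 35 in Sgal+aa+ino (49.2%). For genes 2-fold or more below t = 0 at 240 min, the time at which the straight line between time points passed the midpoint of that fall had a median of 50.6 min in SEtOH, 48.6 min in SEtOH+ino, 62.5 min in SEtOH+aa and 48.6 min in SEtOH+aa+ino. The same median was 44.8 min in Sgal, 52.5 min in Sgal+aa and 48.6 min in Sgal+aa+ino, and 27.7 min over the 5 such genes of Sgal+ino. Of 37 genes with a value in all 8 ethanol and galactose cultures at 240 min, 5 were 2-fold or more below t = 0 in all 8 (7.11% of all genes), namely RNR1, CDC45, POL12, CDC9 and RFC1, and 15 were so in none of them (64.5% of all genes).

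**Figure D2:**
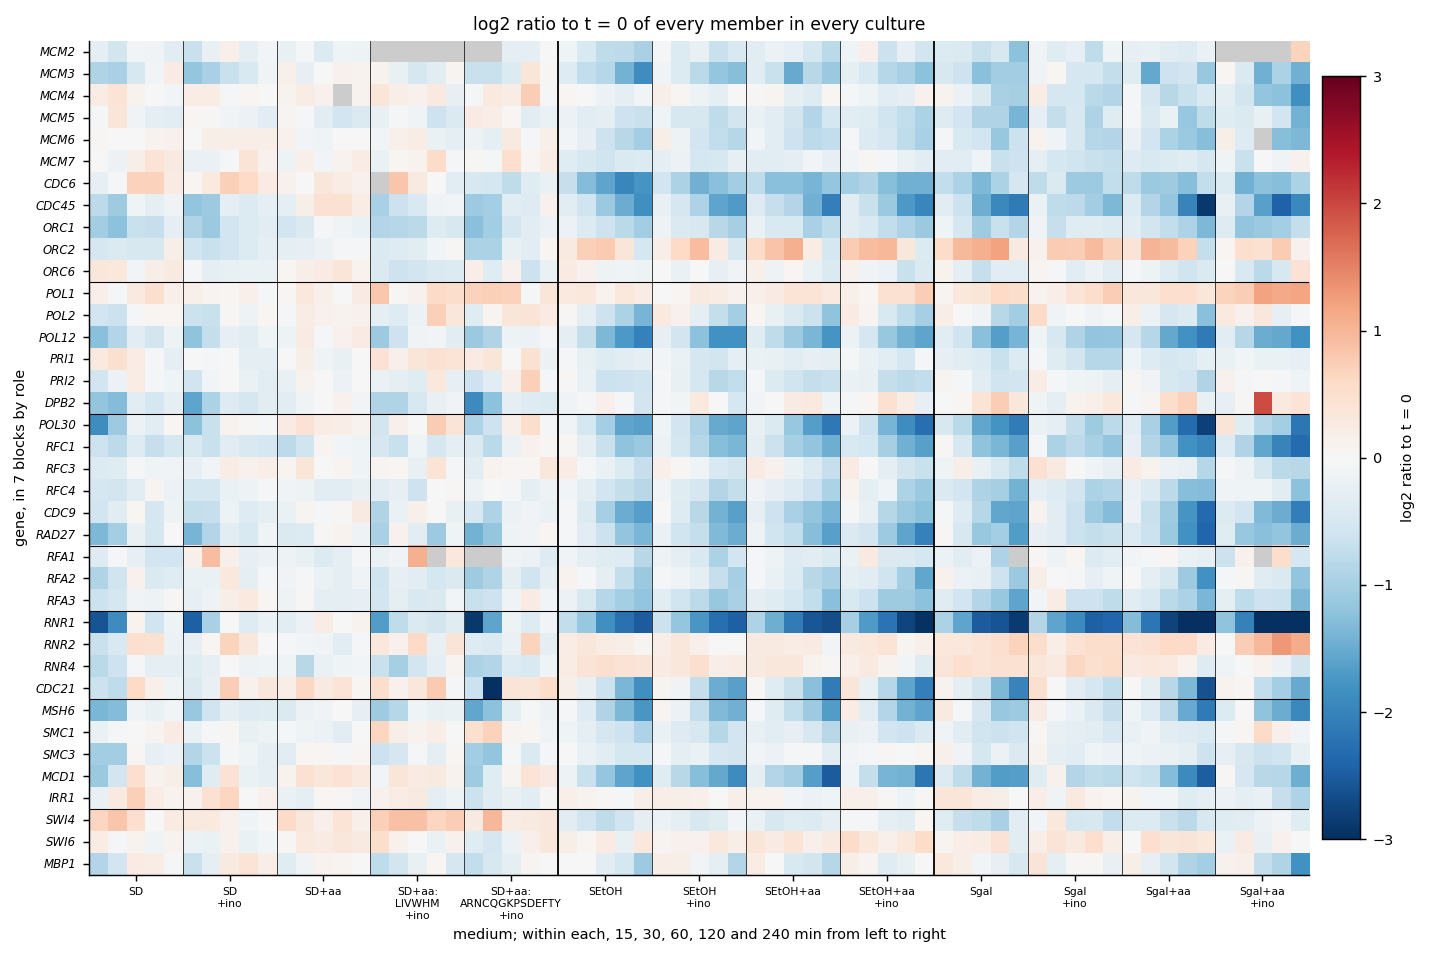
Log2 ratio to t = 0 (colour, ending at 3 in either direction, with grey for missing values) of each of the 38 genes (rows, in 7 blocks by role) in each of the 13 cultures (blocks of 5 columns, 15 to 240 min from left to right). Blue lies at the left of the blocks in the dextrose cultures without amino acids and at the right in ethanol and galactose, with RNR1 the darkest row and ORC2 red in the middle of the ethanol and galactose blocks.

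In the test against t = 0, the early level in dextrose without amino acids was lower for 24 of 37 genes tested and higher for 2, where 32.3% of all 5448 genes tested were lower and 40.6% higher. The median of the 37 was -0.51, and that of all genes was 0.08. At the late level 1 of 38 was lower and 0 were higher (4.82% and 6.66% of all 5332 genes). This gene was RFC1, and 8 of the 38 had an unadjusted p under 0.05. The call was lost without SD, without SD+ino or without any 1 ethanol culture, and 3 genes passed without any 1 galactose culture. Quantile normalization, which by construction gives arrays with small changes the same spread as the others, called 3 higher and 18 lower at this level. It called 3082 of all 5332 genes there, so this count was near the share of all genes. The course was upward for 18 of 37 and downward for 4 (24.8% and 29.9% of all 5329 genes), with a median of 0.43 and of -0.07 over all genes. The number with a course in dextrose rests on both cultures, since it went from 22 to 6 when SD was left out and to 11 without SD+ino.

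In ethanol, 17 of 37 genes were lower and 4 higher at the early level (32.4% and 25.4% of all genes, median -0.16), and 30 of 38 lower and 1 higher at the late level (43.2% and 35.4%, median -0.71). The early count of 21 was 12 without SEtOH and 13 without SEtOH+aa. The course was downward for 26 of 37 and upward for 0 (37.4% and 32.2% of all genes, median -0.66). Galactose gave 19 lower and 5 higher early (34.1% and 29.6%, median -0.19), 31 lower and 4 higher late (45% and 36.4%, median -0.74) and a downward course for 25 and an upward one for 2 (39.3% and 33.1%, median -0.53).

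**Figure D3:**
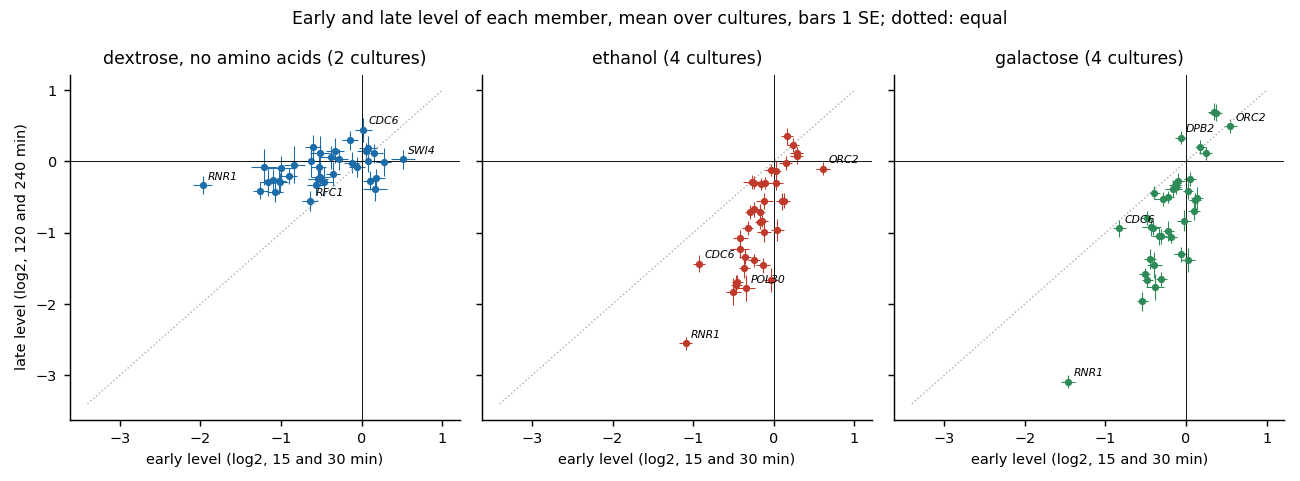
Early level (horizontal axis, mean log2 ratio at 15 and 30 min) against late level (vertical axis, mean at 120 and 240 min) of each gene, as limma means over 2 dextrose cultures without amino acids, 4 ethanol and 4 galactose cultures, with bars of 1 SE and a dotted line where both are equal. Most dextrose points lie above that line at a late level closer to 0 than the early one, and most ethanol and galactose points lie below it, with RNR1 lowest at -2.55 and -3.09.

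The difference in timing was tested on the course of media without amino acids, 2 cultures against 2. Ethanol had a lower course than dextrose for 27 of 37 genes and a higher one for 0, where 34.1% of all genes were lower and 33.9% higher. The median difference was -1.04 against -0.01 over all genes. Galactose had a lower course than dextrose for 22 of 37 and a higher one for 0 (32.3% and 31.3% of all genes, medians -0.84 and 0.01). Both differences use the same 2 dextrose cultures. Early, ethanol lay above dextrose for 17 of 37 genes and below it for 3 (24.2% and 31.5% of all genes), and galactose above it for 21 and below it for 5 (25.6% and 30.8%). Late, ethanol lay below dextrose for 20 of 38 and above it for 1 (29.8% and 21.4%), and galactose below it for 18 and above it for 3 (25.7% and 20.8%). The early galactose count of 26 was 16 without Sgal+ino. The late ethanol count of 21 was 13 without SD, 12 without SD+ino, 11 without SEtOH and 13 without SEtOH+ino, and the late galactose count of 21 was 11 without SD, 12 without SD+ino and 13 without Sgal.

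At single times most genes called lay above dextrose at 15 min and below it from 60 min on, and at 30 min the calls above dextrose were near the share of all genes. At 15 min ethanol was above dextrose for 23 genes and below it for 2 of 37 (28.7% and 35.5% of all genes), at 30 min for 8 and 3 (17.8% and 21.6%) and at 60 min for 2 and 16 of 35 (16.5% and 19.3%). At 120 min the counts were 2 and 18 of 36 (17.4% and 22.2%), and at 240 min 0 and 19 of 37 (20.2% and 27.5%). Galactose was above dextrose for 22 genes at 15 min and below it for 3 (29.4% and 34.3%), for 7 and 4 at 30 min (20.5% and 23.7%), for 2 and 15 at 60 min (19.3% and 20.5%), for 4 and 15 at 120 min (19.2% and 21.4%) and for 1 and 17 at 240 min (19% and 22.8%).

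These splits moved with the scaling of the arrays. Under quantile normalization the course relative to dextrose was higher for 4 and lower for 16 genes in ethanol and higher for 2 and lower for 15 in galactose. The early level relative to dextrose was then higher for 8 and lower for 4 in ethanol and higher for 12 and lower for 3 in galactose, and the early level in ethanol itself was higher for 8 and lower for 19. For the early level relative to dextrose, 2068 of all 5448 genes were then called in ethanol and 2391 in galactose, in either direction. The course was then lower for 18 genes and higher for 2 in ethanol. At 15 min 8 genes were then above dextrose and 2 below it in ethanol and 12 above and 3 below it in galactose. Of all 5396 genes tested at 15 min, 1903 were then called in ethanol and 2153 in galactose, in either direction. Taken in either direction, these early and 15 min counts relative to dextrose were near or below the share of all genes. At 30 min ethanol was above dextrose for 4 genes and below it for 3 (1461 of all 5382 genes called), and at 240 min the counts were 2 and 14 for ethanol and 3 and 13 for galactose. With each array centred on its median, the course in dextrose was upward for 21 genes and downward for 1, at 30 min ethanol was above dextrose for 11 and below it for 2 and galactose above it for 12 and below it for 3, and at 60 min ethanol was above it for 2 and below it for 8 (1782 of all 5191 genes called).

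**Figure D4:**
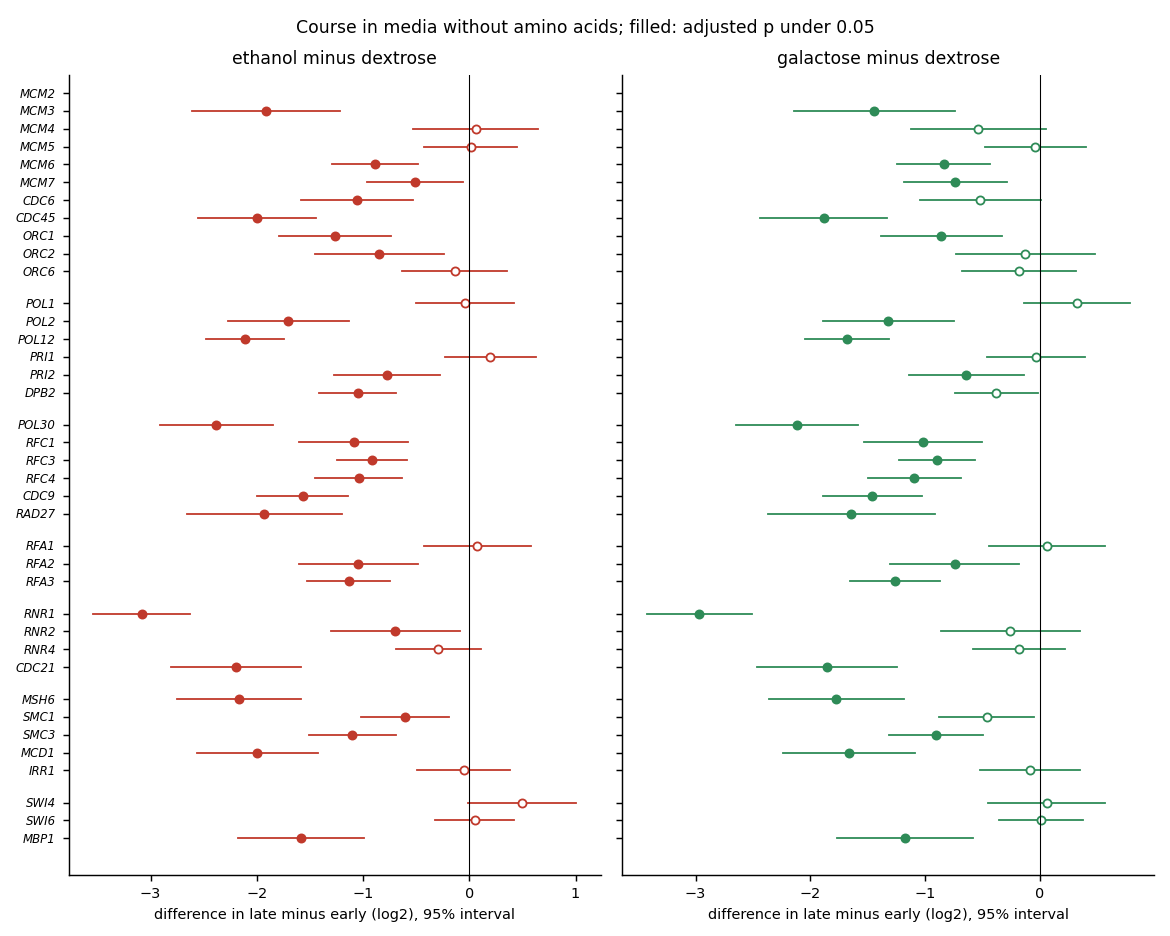
Difference in course (late minus early log2 level) between ethanol and dextrose (left) and between galactose and dextrose (right) in media without amino acids, for each gene grouped by role, with 95% intervals from limma and filled points where the adjusted p was under 0.05. The filled points, 27 in ethanol and 22 in galactose, all lie left of 0, with RNR1 farthest at -3.08 and -2.97, and MCM2 was not tested. Quantile normalization turned the sign of RFC1 in both and of ORC1 in galactose.

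Among the genes of nucleotide supply, RNR1, the large subunit of ribonucleotide reductase, had the widest swing of the 38 genes. In SD its log2 ratio was -2.60, -1.88, 0.10, -0.59 and -0.14 at 15, 30, 60, 120 and 240 min, and in SD+ino it was -2.46, -0.97, -0.02, -0.38 and -0.21. With ARNCQGKPSDEFTY it was -2.89, -1.57, -0.15, -0.38 and -0.07, with LIVWHM -1.69, -0.76, -0.44, -0.56 and -0.37 and in SD+aa -0.32, -0.18, 0.21, 0.02 and 0.11. The transcript was thus lowest at the first time point in all 5 dextrose cultures and lay between -0.44 and 0.21 at 60 min, and SD+aa had the smallest dip. At 240 min RNR1 was at -2.50, -2.46, -2.67 and -2.97 in SEtOH, SEtOH+ino, SEtOH+aa and SEtOH+aa+ino and at -2.87, -2.37, -3.71 and -3.90 in the same order of galactose media, with no overlap with the dextrose cultures. The early level in dextrose without amino acids was -1.97 ± 0.12 (n = 2 cultures, 3.93-fold lower, limma adjusted p = 2.13e-08). Late levels were -2.55 ± 0.09 in ethanol (n = 4, 5.86-fold lower, limma adjusted p = 4.87e-08) and -3.09 ± 0.09 in galactose (n = 4, 8.52-fold lower, limma adjusted p = 1.41e-08). Its course differed by -3.08 ± 0.20 between ethanol and dextrose and by -2.97 ± 0.20 between galactose and dextrose (limma adjusted p = 2.06e-06 and 4.02e-06). Under quantile normalization the early difference of RNR1 from dextrose without amino acids turned sign, to -0.69 in ethanol and -0.84 in galactose.

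The small subunit genes RNR2 and RNR4 rose early in ethanol and galactose. Early levels of RNR2 were -0.56 and -0.09 in SD and SD+ino, 0.29, 0.27, 0.27 and 0.30 in the 4 ethanol cultures and 0.31, 0.37, 0.43 and 0.37 in the 4 galactose cultures, so that every ethanol and galactose culture was above the start. Both genes fell early in dextrose without amino acids (-0.33 ± 0.11 for RNR2 and -0.51 ± 0.12 for RNR4) and rose early in ethanol (0.28 ± 0.08 and 0.28 ± 0.08) and galactose (0.37 ± 0.08 and 0.24 ± 0.08). The early level of RNR4 was above the start in all of these cultures but Sgal+aa+ino (-0.06). Late in galactose RNR2 was higher (0.68 ± 0.12, limma adjusted p = 0.000498), with 0.59, 0.53, 0.42 and 1.20 in the single cultures, of which Sgal+aa+ino stood highest. Late levels of RNR4 were 0.41, 0.21, 0.06 and -0.22 in SEtOH, SEtOH+ino, SEtOH+aa and SEtOH+aa+ino and 0.45, 0.52, -0.13 and -0.36 in the galactose cultures. CDC21, thymidylate synthase, had early levels of -0.70 and -0.33 in SD and SD+ino, with -0.52 ± 0.12 as the group mean. Its late levels were -1.60, -1.56, -1.67 and -1.82 in ethanol and -1.68, -0.61, -1.98 and -1.27 in galactose, all below the dextrose cultures (0.01 to 0.46). With ARNCQGKPSDEFTY, CDC21 was at the limit of the deposited range at 30 min (-6.64) against -0.64 at 15 min and 0.40 at 60 min, and this single value was the only one of the 38 genes at a limit.

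**Figure D5:**
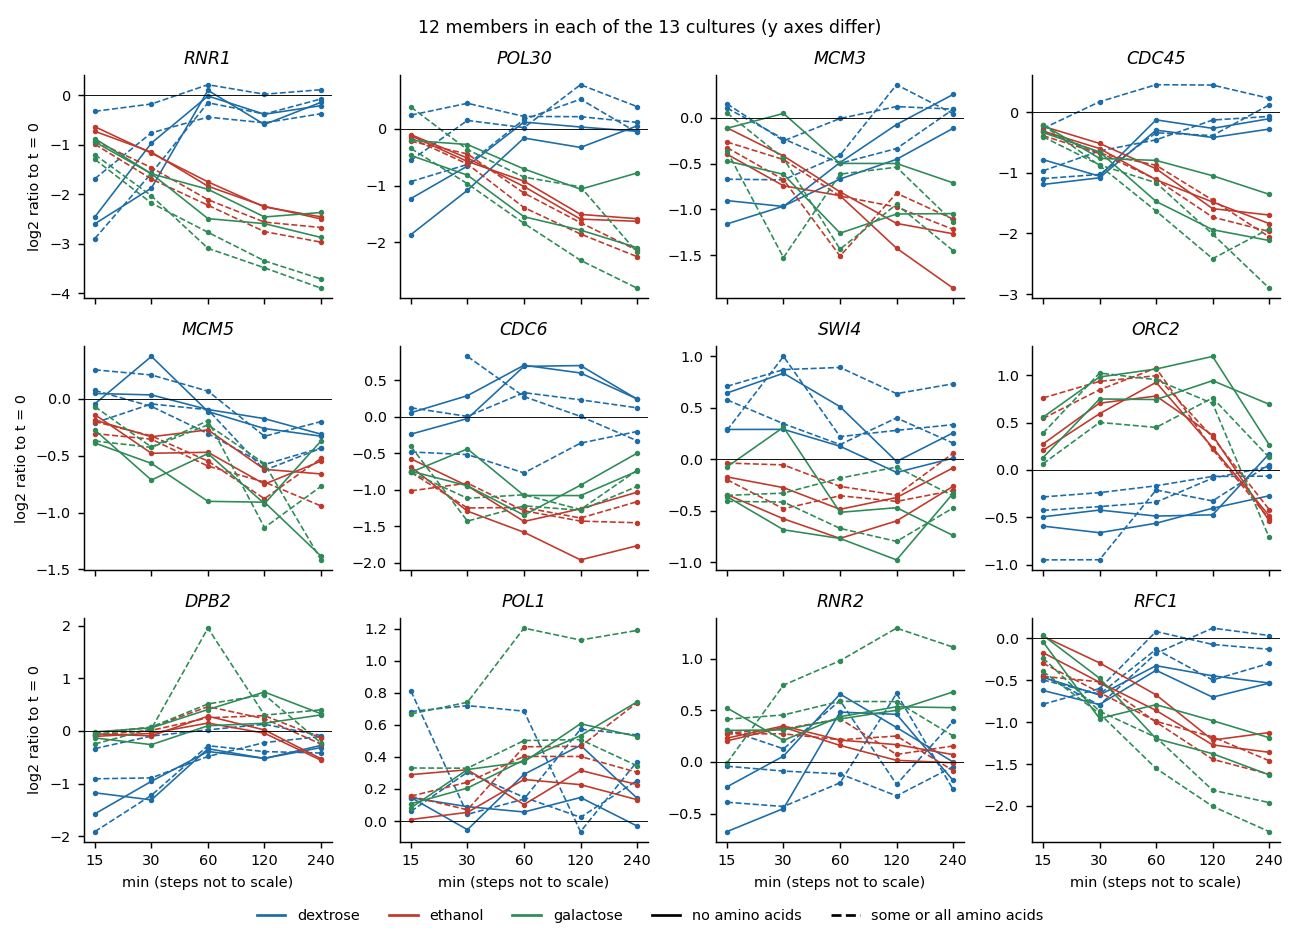
Log2 ratio to t = 0 (vertical axes, which differ) of 12 genes in each of the 13 cultures at 15 to 240 min, coloured by carbon source, solid without amino acids and dashed with some or all. RNR1, POL30 and CDC45 start low in most dextrose cultures and end low in ethanol and galactose, CDC6 is low in ethanol and galactose from 15 min on, and ORC2 rises and then comes down in ethanol.

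The sliding clamp gene POL30 (PCNA), which holds polymerases on DNA, was also low early in dextrose without amino acids and late in ethanol and galactose. In SD it was at -1.86, -1.08, -0.17, -0.33 and 0.05 and in SD+ino at -1.23, -0.66, 0.12, 0.03 and -0.05 over the 5 times, against 0.24, 0.45, 0.21, 0.21 and 0.11 in SD+aa. At the late level it stood at -1.61, -1.55, -1.90 and -2.05 in the ethanol cultures and -1.94, -0.92, -2.56 and -1.60 in the galactose cultures, and at -0.14 to 0.58 over the 5 dextrose cultures, without overlap. The early mean in dextrose without amino acids was -1.21 ± 0.16, and the course differed by -2.38 ± 0.24 in ethanol and -2.12 ± 0.24 in galactose (limma adjusted p = 1.88e-05 and 5.09e-05).

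All 6 genes of the clamp, clamp loader, flap removal and ligation fell early in dextrose without amino acids (32.3% of all genes). All 6 were lower late in both ethanol and galactose (43.2% and 45% of all genes). They also had a lower course than in dextrose in both (34.1% and 32.3% of all genes), where quantile normalization turned the sign of RFC1. RFC1, the large subunit of the clamp loader, was the gene that stayed low late in dextrose without amino acids (-0.55 ± 0.14, -0.62 and -0.49 in SD and SD+ino). Its early level there was -0.71 and -0.57, and in SD+aa it was -0.69. Late it stood at -1.17, -1.32, -1.32 and -1.53 in ethanol and -1.50, -1.08, -1.89 and -2.16 in galactose. The loader genes RFC3 and RFC4 moved less, with late means of -0.55 ± 0.10 and -0.84 ± 0.10 in ethanol and -0.54 ± 0.10 and -1.05 ± 0.10 in galactose. CDC9, DNA ligase, had late means of -1.39 ± 0.09 in ethanol and -1.65 ± 0.09 in galactose. RAD27, the flap nuclease that trims Okazaki fragments, had early levels of -1.19 and -1.13 in SD and SD+ino and -0.42 in SD+aa. Its late levels were -1.29, -1.40, -1.45 and -1.81 in ethanol and -1.34, -0.69, -2.10 and -1.34 in galactose, with the early dextrose mean at -1.16 ± 0.10 and the late ethanol mean at -1.49 ± 0.15.

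Among polymerase and primase genes, POL12, the B subunit of polymerase alpha, and POL2, the catalytic subunit of polymerase epsilon, fell both early in dextrose without amino acids and late in ethanol and galactose, while POL1 rose late in ethanol and galactose and DPB2 fell early in dextrose. POL12 had early levels of -1.07 and -0.96 in SD and SD+ino and of 0.05 in SD+aa, and late levels of -1.88, -1.81, -1.57 and -1.50 in ethanol and -1.52, -1.17, -1.97 and -1.67 in galactose. Its course differed from that in dextrose by -2.11 ± 0.16 in ethanol (limma adjusted p = 3.96e-06) and by -1.68 ± 0.16 in galactose. POL2 had means of -0.63 ± 0.11 early in dextrose without amino acids, -0.96 ± 0.15 late in ethanol and -0.51 ± 0.15 late in galactose.

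POL1, the catalytic subunit of polymerase alpha, had early levels of 0.05 and 0.12 in SD and SD+ino and late levels of 0.27, 0.18, 0.35 and 0.60 in ethanol and 0.57, 0.64, 0.43 and 1.16 in galactose. All 8 late values lay above the start, and the mean was 0.35 ± 0.12 in ethanol and 0.70 ± 0.12 in galactose (limma adjusted p = 0.024 and 0.000497). The highest value came from Sgal+aa+ino, the galactose culture with both amino acids and inositol. DPB2, the B subunit of polymerase epsilon, was among the most lowered in dextrose, at -1.18, -1.31, -0.34, -0.52 and -0.27 in SD and -1.58, -0.96, -0.39, -0.52 and -0.32 in SD+ino over the 5 times. Its early levels were -0.07, -0.07, -0.03 and 0.02 in the ethanol and 0.02, -0.20, 0.00 and -0.10 in the galactose cultures, and no culture of either overlapped with SD or SD+ino. The early mean was -1.26 ± 0.09 in dextrose without amino acids (limma adjusted p = 1.32e-07). Late it was higher than at the start in galactose (0.34 ± 0.08, with 0.54, 0.23, 0.23 and 0.35 in the cultures) and had a mean of -0.12 ± 0.08 in ethanol (limma adjusted p = 0.218). At 60 min in Sgal+aa+ino it was 1.96, against 0.41, 0.10 and 0.52 in Sgal, Sgal+ino and Sgal+aa. Of the primase genes, PRI2 fell early in dextrose (-0.36 ± 0.09) and late in ethanol (-0.71 ± 0.12) and galactose (-0.41 ± 0.12). PRI1, the catalytic primase subunit, had early levels of 0.39 and -0.02 in SD and SD+ino, which differ in sign, and late levels of -0.31, -0.41, -0.27 and -0.29 in ethanol and -0.54, -0.85, -0.36 and -0.22 in galactose, with late means of -0.32 ± 0.09 and -0.49 ± 0.09.

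The genes of origin recognition and helicase loading differed in direction among themselves early in dextrose. Of 10 tested early in dextrose without amino acids, 4 fell and 1 rose (32.3% and 40.6% of all genes), with a median of -0.06. The share that fell was thus near that of all genes. Late in ethanol 9 of 11 were lower (43.2% of all genes, median -0.71). Late in galactose 9 were lower and 1 higher (45% and 36.4% of all genes, median -0.92). CDC45, which joins the helicase when origins fire, fell early in dextrose without amino acids and late in both other carbon sources. It was at -0.92 and -1.14 early in SD and SD+ino, -1.06 with ARNCQGKPSDEFTY, -0.80 with LIVWHM and -0.05 in SD+aa. Late it stood at -1.66, -1.64, -1.75 and -1.85 in ethanol and -2.03, -1.20, -2.46 and -2.17 in galactose. Its course differed by -1.996 ± 0.246 in ethanol and -1.88 ± 0.25 in galactose from that in dextrose.

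The helicase subunits MCM2 to MCM7 did not move as a block. MCM3 fell early in dextrose without amino acids, with -0.94 and -1.06 in SD and SD+ino and -0.05 in SD+aa, and was low late in ethanol (-1.64, -1.21, -0.97 and -1.10) and galactose (-1.05, -0.61, -0.84 and -1.20). MCM4 had early levels of 0.32 and 0.23 in SD and SD+ino and rose there (0.27 ± 0.09, limma adjusted p = 0.0174). Late it was at -0.18, -0.13, -0.16 and -0.07 in ethanol and at -0.99, -0.84, -0.56 and -1.54 in galactose, where it fell (-0.98 ± 0.14), and these groups did not overlap. MCM5 had early levels of 0.16 and 0.04 in SD and SD+ino against -0.26, -0.31, -0.26 and -0.33 in ethanol and -0.48, -0.49, -0.25 and -0.40 in galactose. Its late means were -0.71 ± 0.10 in ethanol and -0.93 ± 0.10 in galactose, and the difference in course from dextrose was 0.01 ± 0.20 in ethanol (95% interval -0.43 to 0.45). In dextrose MCM5 was below the start late as well. It was at -0.29 in SD, -0.24 in SD+ino, -0.50 in SD+aa, -0.53 with LIVWHM and -0.26 with ARNCQGKPSDEFTY. MCM6 and MCM7 had early means of 0.05 ± 0.10 and -0.14 ± 0.10 in dextrose without amino acids, with limma adjusted p of 0.68 and 0.218. Both fell late, MCM6 with means of -0.84 ± 0.08 in ethanol and -1.06 ± 0.08 in galactose and MCM7 with -0.30 ± 0.09 and -0.44 ± 0.09. MCM2 was tested at the late level only. Its values there were -0.21 and -0.19 in SD and SD+ino, -0.89, -0.56, -0.66 and -0.40 in ethanol and -0.86, -0.45, -0.30 and 0.66 in galactose, the last of these from 240 min alone. The mean was -0.63 ± 0.15 in ethanol (limma adjusted p = 0.00388) and -0.24 ± 0.15 in galactose (limma adjusted p = 0.176).

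CDC6, the loading factor that is made anew in each cycle, was lower from the first times on in ethanol (-0.93 ± 0.08) and galactose (-0.83 ± 0.08), while its early level in dextrose without amino acids was 0.02 ± 0.11 (limma adjusted p = 0.874). It was at -0.24, -0.02, 0.69, 0.70 and 0.24 over the 5 times in SD and at 0.05, 0.29, 0.71, 0.60 and 0.24 in SD+ino, above the start at 60 and 120 min in both. In ethanol it was at -0.69, -0.58, -0.76 and -1.02 at 15 min and -1.77, -1.03, -1.16 and -1.45 at 240 min, and in galactose at -0.75, -0.76, -0.76 and -0.41 and -0.50, -0.75, -0.73 and -0.96. All 8 cultures were below all dextrose cultures with a value at 60 and 120 min. Its early mean differed from dextrose without amino acids by -0.90 ± 0.15 in ethanol and -0.74 ± 0.15 in galactose (limma adjusted p = 0.000374 and 0.00133), and its late mean by -1.95 ± 0.23 and -1.26 ± 0.23.

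Of the origin recognition complex, ORC1, its largest subunit, fell early in dextrose without amino acids (-1.07 ± 0.10) and late in ethanol (-0.93 ± 0.10) and galactose (-0.79 ± 0.10). ORC2 went the other way at first. In ethanol it was at 0.27, 0.71, 0.78, 0.37 and -0.54 over the 5 times in SEtOH, 0.21, 0.59, 0.93, 0.24 and -0.48 in SEtOH+ino, 0.54, 0.85, 1.08, 0.22 and -0.52 in SEtOH+aa and 0.76, 0.94, 1.00, 0.35 and -0.42 in SEtOH+aa+ino. All 4 cultures peaked at 60 min and ended below the start. In galactose the values were 0.56, 0.98, 1.07, 1.20 and 0.27 in Sgal, 0.13, 0.75, 0.74, 0.94 and 0.69 in Sgal+ino, 0.39, 1.02, 0.95, 0.70 and -0.71 in Sgal+aa and 0.07, 0.50, 0.45, 0.76 and 0.13 in Sgal+aa+ino, of which Sgal+aa alone ended below the start. In SD and SD+ino the early levels were -0.46 and -0.63. Early means were -0.54 ± 0.12 in dextrose without amino acids, 0.61 ± 0.09 in ethanol and 0.55 ± 0.09 in galactose. ORC6 passed at the late level in ethanol (-0.30 ± 0.11, limma adjusted p = 0.0323) and galactose (-0.28 ± 0.11, limma adjusted p = 0.0407), with 0.08 ± 0.12 early in dextrose.

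Of the 3 genes of replication protein A, which coats single-stranded DNA, RFA2 and RFA3 fell early in dextrose without amino acids (-0.47 ± 0.12 and -0.39 ± 0.13) and late in ethanol (-0.99 ± 0.14 and -1.08 ± 0.11) and galactose (-0.83 ± 0.14 and -1.05 ± 0.11). RFA1, the largest subunit, had early levels of -0.22 and 0.54 in SD and SD+ino, which differ in sign, and late levels of -0.57 and -0.21. Late it was at -0.61, -0.76, -0.38 and -0.47 in ethanol and -0.92, -0.37, -0.22 and 0.00 in galactose, the first of these from 120 min alone. Late means were -0.56 ± 0.11 and -0.38 ± 0.11. Its course in dextrose was downward (-0.55 ± 0.16, limma adjusted p = 0.0151) where those of RFA2 and RFA3 were 0.19 ± 0.18 and 0.44 ± 0.12.

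Among the genes of mismatch repair and cohesin, MSH6, which recognises mismatches, and MCD1, the cohesin subunit that is cut at anaphase, both fell early in dextrose without amino acids and late in ethanol and galactose. MSH6 had early levels of -1.34 and -0.86 in SD and SD+ino and -0.31 in SD+aa, and late levels of -1.55, -1.38, -1.39 and -1.50 in ethanol and -1.11, -0.56, -1.81 and -1.71 in galactose. MCD1 had early levels of -0.85 and -0.82 in SD and SD+ino and 0.28 in SD+aa, and late levels of -1.71, -1.70, -2.08 and -1.80 in ethanol and -1.67, -0.79, -2.19 and -1.16 in galactose. Their courses differed from dextrose by -2.17 ± 0.26 and -1.99 ± 0.25 in ethanol and by -1.77 ± 0.26 and -1.66 ± 0.25 in galactose. Of the other cohesin genes, SMC3 fell early in dextrose without amino acids (-0.90 ± 0.10) and was at -0.30 ± 0.08 late in ethanol and -0.33 ± 0.08 late in galactose. SMC1 had -0.12 ± 0.09 early in dextrose (limma adjusted p = 0.24) and late means of -0.67 ± 0.11 and -0.35 ± 0.11. IRR1 passed in galactose at the late level (-0.24 ± 0.09, limma adjusted p = 0.038), with -0.02 ± 0.09 in ethanol (limma adjusted p = 0.851).

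The transcription factor genes of G1/S each had a course of their own. SWI4, the DNA-binding part of SBF, was above the start early in all 5 dextrose cultures, with 0.74 and 0.29 in SD and SD+ino, 0.46 in SD+aa, 0.79 with LIVWHM and 0.64 with ARNCQGKPSDEFTY. It was at -0.46, -0.22, -0.34 and -0.05 in ethanol and -0.52, 0.12, -0.41 and -0.34 in galactose, below the dextrose cultures in every one of the 8. The early difference from dextrose without amino acids was -0.86 ± 0.22 in ethanol and -0.72 ± 0.22 in galactose (limma adjusted p = 0.00567 and 0.0146). Late it was at -0.43, -0.23, -0.36 and -0.15 in ethanol and -0.65, -0.61, -0.64 and -0.22 in galactose. MBP1, the DNA-binding part of MBF, fell early in dextrose without amino acids (-0.60 ± 0.10) and late in ethanol (-0.56 ± 0.12) and galactose (-0.69 ± 0.12). SWI6, the partner of both, rose early in ethanol (0.24 ± 0.07) and galactose (0.18 ± 0.07) and passed in no comparison of the late level or course shown here, with late means of 0.23 ± 0.10 and 0.21 ± 0.10.

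The early fall in dextrose differed with amino acids. Early levels were lower without amino acids (SD and SD+ino) than in SD+aa for 14 of 37 genes and higher for 0 (21.7% and 26.6% of all genes, median -0.33). The largest differences were -1.72 ± 0.20 for RNR1, -1.55 ± 0.28 for POL30 and -1.11 ± 0.22 for MCD1 (limma adjusted p = 3.11e-05, 0.000817 and 0.00161). SD+aa was 1 culture, and its spread was taken from the other groups. Under quantile normalization the early split was 2 higher and 5 lower, with the sign of ORC1 and RAD27 turned (1442 of all 5448 genes called). Late, 0 of 38 differed, with 0 at an unadjusted p under 0.05 (1.56% of all genes called in limma). Under quantile normalization 13 were called, 4 higher and 9 lower. That setting called 1863 of all 5332 genes, so the 13 were near the share of all genes. The course differed for RNR1 (1.33 ± 0.25), POL30 (1.31 ± 0.29) and DPB2 (0.61 ± 0.20), 3 of 37 and all upward without amino acids (13.3% of all genes upward). Quantile normalization turned the sign of RNR1 and DPB2 and called 7 higher and 5 lower (1855 of all 5329 genes called). This count of 3 was 1 without SD, 11 without Sgal+aa and 9 without Sgal+aa+ino.

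In ethanol and in galactose, limma called 0 of 37 genes for amino acids early, with 0 and 2 at an unadjusted p under 0.05 (0.0184% and 0% of all genes called). Late in galactose, RNR1 was higher without than with amino acids by 1.04 ± 0.18 (limma adjusted p = 0.0454, 0.844% of all genes called), a sign that quantile normalization turned, and late in ethanol limma called 0 of 38 (1 at an unadjusted p under 0.05, 0.544% of all genes). The RNR1 call was lost without SD, SD+ino, Sgal+ino or any 1 ethanol culture, and 4 genes passed without Sgal, 10 without Sgal+aa and 4 without Sgal+aa+ino. The amino acid difference itself, a comparison added after the values had been seen, was larger in dextrose than in ethanol for 12 of 37 genes at the early level (17.9% of all genes in that direction) and larger than in galactose for 14 (19%), all toward lower levels without amino acids in dextrose. The count of 12 was 7 without SEtOH+aa, and under quantile normalization the counts were 3 and 5 (679 and 843 of all 5448 genes called). With all amino acids present, the early level differed between ethanol and dextrose for 4 genes, 2 higher and 2 lower in ethanol (4.77% and 3.25% of all genes). Between galactose and dextrose it differed for 5, 1 higher and 4 lower in galactose (6.44% and 6.79%). These counts were near the shares of all genes. RNR1 and CDC6 were lower in ethanol (-1.02 ± 0.20 and -1.05 ± 0.19) and in galactose (-1.43 ± 0.20 and -0.99 ± 0.19), ORC2 was higher in both (1.03 ± 0.21 and 0.76 ± 0.21) and RNR4 higher in ethanol (0.75 ± 0.20). POL12 and CDC45 were lower in galactose (-0.69 ± 0.17 and -0.54 ± 0.16). The count of 4 was 1 without SEtOH+aa+ino, and the count of 5 was 10 without SD or SD+ino, 3 without any 1 ethanol culture and 2 without Sgal+aa. Quantile normalization gave 5 higher and 8 lower in ethanol and 4 higher and 9 lower in galactose (1625 and 1473 of all 5448 genes called). Late with all amino acids, 15 of 38 genes were lower in ethanol and 0 higher (25% and 20.4% of all genes), and 21 were lower and 1 higher in galactose (30.7% and 25%). The course with all amino acids was lower for 14 of 37 genes in ethanol (20.5% of all genes) and for 16 in galactose (24%), and higher for 0 in either (16.1% and 21.1%). Without SEtOH+aa+ino the course count in ethanol was 9. With quantile normalization 2 were higher and 13 lower in ethanol and 2 higher and 8 lower in galactose (for galactose 1721 of all 5329 genes called), and late in ethanol 2 were higher and 17 lower.

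Few of the 38 genes, as of all genes, passed between ethanol and galactose. Early, limma called 0 of 37 genes (3 at an unadjusted p under 0.05, 2% of all genes called). Late, 5 of 38 differed, 2 higher and 3 lower in ethanol (9.47% and 8.25% of all genes). MCM4 (0.85 ± 0.20) and RNR1 (0.54 ± 0.13) were higher in ethanol, and ORC2 (-0.60 ± 0.14), RNR2 (-0.60 ± 0.17) and DPB2 (-0.46 ± 0.12) were higher in galactose, with limma adjusted p between 0.0214 and 0.0405. The count of 5 was 0 without any 1 ethanol culture, 2 without SD, SD+ino or Sgal, 13 without Sgal+aa and 2, both higher in ethanol, under quantile normalization. The course differed for DPB2 alone (-0.48 ± 0.11, limma adjusted p = 0.0413, 5.74% of all genes called), a call that was lost without any 1 of SD, SD+ino, Sgal, Sgal+ino and the 4 ethanol cultures, and 5 genes passed without Sgal+aa.

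Of the other replication genes, 32 had a probe. Early in dextrose without amino acids 16 were lower and 6 higher (32.3% and 40.6% of all genes, median -0.27), late in ethanol 24 lower and 5 higher (43.2% and 35.4%, median -0.64) and late in galactose 25 lower and 5 higher (45% and 36.4%, median -0.77). The course relative to dextrose was lower for 17 and higher for 2 in ethanol (34.1% and 33.9%) and lower for 18 and higher for 2 in galactose (32.3% and 31.3%). The largest fall in dextrose was that of DPB4, another polymerase epsilon subunit (-1.58 ± 0.11), followed by TOP2, topoisomerase II (-1.10 ± 0.10). TAH11 (Cdt1), which loads the helicase with Cdc6, rose late in ethanol (1.66 ± 0.14) and galactose (2.06 ± 0.14).

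Other lists of cell cycle genes fell late in ethanol and galactose too, where 43.2% and 45% of all genes were lower and 35.4% and 36.4% higher. Of 12 genes for G1 cyclins and G1/S regulators, 9 were lower and 1 higher late in ethanol (median -1.25) and 10 lower and 1 higher in galactose (-1.44), with CLN2, a G1 cyclin, at -2.24 ± 0.18 in ethanol. All 10 G2/M genes were lower late in both (medians -1.52 and -1.62), with the mitotic cyclin CLB2 at -2.41 ± 0.09 and -2.25 ± 0.09. Of 10 M/G1 genes, 9 were lower in ethanol and 8 in galactose, and 1 was higher in each (medians -1.14 and -1.47), with the daughter-specific gene DSE2 at -2.17 ± 0.11 and -2.63 ± 0.11. These 3 medians lay below that of the 38 genes in both carbon sources. Early in dextrose without amino acids, where 32.3% of all genes were lower and 40.6% higher, 5 of the 12 G1 genes were lower and 2 higher, 5 of the 10 G2/M genes lower and 2 higher, and 2 of the 10 M/G1 genes lower and 3 higher. Histone genes, which are transcribed in S phase, were lower early in dextrose without amino acids for 7 of 10 and higher for 1 (median -0.52), with HTB2 at -0.87 ± 0.12. Late in ethanol 6 were lower and 1 higher (-0.27).

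Of 9 other genes of cohesion and repair, 3 were lower and 2 higher early in dextrose without amino acids (32.3% and 40.6% of all genes), and 6 lower and 2 higher late in ethanol (43.2% and 35.4%), with TOS4, a target of SBF, at -1.50 ± 0.09 and -1.78 ± 0.13. Of 4 DNA damage-induced genes, 1 was lower and 2 higher early in dextrose and 2 lower and 1 higher late in ethanol. RNR3, the damage-induced large subunit of ribonucleotide reductase, was lower in both (-0.85 ± 0.11 and -0.67 ± 0.18).

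Growth and stress genes also moved, and since the direction of the deposited ratios was read from them, their signs are no result. All 20 ribosome assembly genes were lower early in dextrose without amino acids (32.3% of all genes, median -4.01) and 15 of 16 stress response genes higher (40.6% of all genes, median 2.63). Late there, the medians were -0.71 and 0.67. Late in ethanol all 20 were lower and all 16 higher (43.2% and 35.4% of all genes, medians -2.15 and 4.42), and so they were late in galactose (45% and 36.4% of all genes, medians -2.01 and 4.72). Their part in the changes of the replication genes was not tested.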

How the data were processed

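Two-colour arrays set Cy5-labelled RNA of shifted cells against Cy3-labelled RNA of cells before the shift, per the labels. The deposited values were read as log10 ratios, since they end at 2 in either direction, a 100-fold ratio (280 values at the lower and 233 at the upper limit). Their base, direction and normalization by the authors are not given in the sources used here. Multiplication by 3.32 turned them into log2 ratios. Of 6256 probes, 5568 named 1 gene and 688 none in the platform annotation, giving 5538 genes, and the probes of 29 genes were averaged. Arrays held 4954 to 6254 probes with a value (median 6220), and 11677 values were missing.

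The 8 repeat arrays were averaged with their first array. For 2 of them (SD+ino at 240 min and Sgal+ino at 60 min) the values correlated at 0.9999 and 0.9941 with the first array, and they were counted as 1 sample. A mean over 2 times used the single value where 1 was missing. The 11 cultures with no or all amino acids entered 1 fit with a mean for each group. It used limma 3.58.1 in R 4.3.3 (lmFit and eBayes, 5 residual degrees of freedom, 2-sided, Benjamini-Hochberg over all genes tested, threshold 0.05) and was checked on simulated data. Media with some amino acids were not compared. Each medium was 1 culture, so p-values measure the spread between cultures that differ in inositol. No slide or date was used as a batch.

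The 38 genes and the other gene lists were chosen with earlier results of these data known, and the contrast of amino acid effects was added after the values had been seen. Any of the 38 could be named. Values by culture were set for MCM2, POL1, RNR1, RFA1, CDC6 and SWI4, with up to 3 genes in each direction per comparison, and other genes described culture by culture were chosen after their values were seen. Of the other lists, up to 3 genes with the largest change in a comparison were named. The alternatives were array centring, quantile normalization, first arrays only, 15 and 240 min alone, an inositol term, another variance prior, values at the limits as missing, complete genes only, and leaving out each culture. Promoter sequences were not used here.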

Additional observations from a re-analysis of the deposited data

Results flagged for a closer look

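In groups of 4 cultures, 1 culture stood apart from the other 3 in 7 of 232 checks, where chance gives about 1 in 20. The 7 are thus below the rate that chance gives. Each check took a gene or the median of the 38, a carbon source, and the early level, late level or course. Checks of the same gene are therefore not independent. SEtOH+aa+ino, the ethanol culture with amino acids and inositol, was the one in 5 of the 7. Its late level was -1.29 for RFA2, against -0.92 to -0.84 in the other ethanol cultures, and -1.02 for RFC4, against -0.80 to -0.77. Its course was -0.92 for RFC4 (others -0.60 to -0.57), 0.0141 for MCM4 (others -0.24 to -0.21) and -0.25 for MBP1 (others -0.83 to -0.77). In galactose, Sgal+aa+ino had a late level of -0.22 for SWI4, against -0.65 to -0.61 in the others. The median of the 38 genes late in galactose was -0.58 in Sgal+ino, against -0.86 to -0.82.

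The early effect of leaving out amino acids differed between carbon sources in limma's contrast of the effects. Against ethanol, the effect in dextrose was more negative by -2.07 for RNR1, -1.58 for POL30, -1.11 for MCD1, -1.08 for CDC45, -1.07 for POL12, -0.97 for DPB2, -0.96 for CDC21, -0.88 for RAD27, -0.78 for MSH6, -0.75 for SMC3, -0.72 for POL2 and -0.63 for ORC1 (log2). Against galactose it was more negative by -2.15 for RNR1, -1.43 for POL30, -1.31 for POL12, -1.23 for MCM3, -1.19 for MCD1, -1.13 for RAD27, -1.11 for MSH6, -1.08 for CDC45, -1.02 for CDC21, -1.003 for DPB2, -0.99 for SMC3, -0.81 for CDC9, -0.80 for ORC1 and -0.77 for POL2. Both contrasts use the same 3 dextrose cultures, and all amino acids in dextrose is the single culture SD+aa. Quantile normalization turned the sign of ORC1 in both. Of the course, the amino acid effect in dextrose was more positive than in ethanol by 1.30 for RNR1, 0.98 for SMC3, 0.89 for POL12 and 0.86 for DPB2, and these 4 calls became 0 without SD or without any 1 ethanol culture and 1 without SD+ino. Quantile normalization called none of these 4 and turned DPB2 (-0.38), and with arrays centred on their median 1 of them passed.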

How the results depend on the processing

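No paired analysis was possible because all cultures carry the same replicate number. Media with and without inositol were matched only through the inositol term. Counts of the 38 genes called by limma were recomputed under 8 other settings and with each of 11 cultures left out in turn (a culture then alone in its group is assumed to vary like the others), and counts below are of genes called in either direction. Of 8826 values of called genes under these settings, 7999 kept direction and side of the threshold, 793 kept direction only and 34 turned sign. Many of these values came from leaving out a culture that was outside the comparison. Under quantile normalization alone, 322 kept direction and side of the threshold, 126 kept direction only and 32 turned sign. Taking values at the limit as missing changed no sign and lost no call of a gene. This setting could not test the 38 genes, since their only value at a limit lay in the ARNCQGKPSDEFTY culture, which entered no comparison. Where a count moved, the cause was not tested, except that quantile normalization by construction stretches arrays with small changes and that the filter on complete values tested 24 of the 38 genes.

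Under quantile normalization, the early count against dextrose without amino acids was 12 where it had been 20 in ethanol and 15 where it had been 26 in galactose, and with all amino acids from 4 to 13 and from 5 to 13. The early count of no against all amino acids in dextrose went from 14 to 7, and that of the amino acid effect in dextrose from 12 to 3 against ethanol and from 14 to 5 against galactose. Late, the count in dextrose without amino acids went from 1 to 21, ethanol against galactose from 5 to 2, no against all amino acids from 0 to 13 in dextrose and from 1 to 0 in galactose, and the amino acid effect in dextrose from 0 to 11 against either carbon source (limma, 1 and 9 at an unadjusted p under 0.05 without that normalization). The course count went from 16 to 10 for galactose against dextrose with all amino acids, from 1 to 0 for ethanol against galactose, from 3 to 12 for no against all amino acids in dextrose, and from 4 to 8 and from 0 to 7 for the amino acid effect in dextrose against ethanol and galactose (limma, 3 at an unadjusted p under 0.05 for the 0). At single times, ethanol against dextrose went from 25 to 10 at 15 min and from 11 to 7 at 30 min, galactose against dextrose from 25 to 15 at 15 min, and ethanol against galactose from 3 to 0 at 120 min and from 1 to 2 at 240 min.

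The same normalization turned 32 values. Some were then called in the opposite direction, namely the course of CDC6 in ethanol (limma adjusted p = 0.000107) and early RNR1 against dextrose without amino acids. For RNR1 the limma adjusted p was 0.018 in ethanol and 0.00505 in galactose. The course turned in ethanol for CDC6 (0.78), MCM5 (0.0372), RFA3 (0.0684) and RNR1 (0.0435), in galactose for MCM3 (0.10), MCM5 (0.0482), ORC1 (0.26) and POL1 (-0.0698), for ethanol against dextrose without amino acids for RFC1 (0.14), for galactose for ORC1 (0.20) and RFC1 (0.0739), with all amino acids for RFC4 in galactose (0.39), and for no against all amino acids in dextrose for DPB2 (-0.38) and RNR1 (-0.17). The amino acid effect against ethanol turned for DPB2 in course (-0.38) and ORC1 early (0.27), and against galactose for ORC1 early (0.0631). Early values against dextrose without amino acids turned for CDC45 (-0.0222), POL12 (-0.0949) and RNR1 (-0.69) in ethanol and CDC45 (-0.0143) and RNR1 (-0.84) in galactose, and for no against all amino acids in dextrose for ORC1 (0.30) and RAD27 (0.0928). Late values turned for RFC1 against dextrose without amino acids (0.30 in ethanol, 0.13 in galactose), with all amino acids for RFA3 in ethanol (0.22) and ORC1 (0.0341), RFA2 (0.0708), RFA3 (0.34) and RFC4 (0.45) in galactose, and for RNR1 for no against all amino acids in galactose (-0.11). With 15 and 240 min alone, MCM4 (0.00131) and MCM6 (0.00907) turned at the early level in galactose.

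Over genes with a value on every array, early counts went from 26 to 17 in dextrose, from 20 to 13 for ethanol and from 26 to 17 for galactose against dextrose without amino acids. Late counts went from 31 to 19 in ethanol, from 35 to 22 in galactose, from 5 to 3 between them, from 22 to 13 for galactose against dextrose with all amino acids and from 0 to 1 for the amino acid effect against galactose. Course counts went from 26 to 15 in ethanol and from 27 to 17 against dextrose. Centring each array on its median took the late amino acid effect against galactose from 0 to 1, its course against ethanol from 4 to 1, the course of no against all amino acids in dextrose from 3 to 5 and ethanol against dextrose at 60 min from 18 to 10. The course count of the amino acid effect against ethanol was 2 with 15 and 240 min alone, with a trended and robust variance prior or with the first array of each repeat, and 1 with an inositol term. The late galactose count of 1 for amino acids was 0 under each of these 4 settings. With 15 and 240 min alone the late count went from 1 to 0 in dextrose and from 5 to 1 between ethanol and galactose, with the inositol term the course count between these went from 1 to 0, and with the other variance prior the early count of galactose against dextrose with all amino acids went from 5 to 8.

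Leaving out single cultures, early counts ranged from 12 to 23 in ethanol (21 over all cultures), from 16 to 26 for galactose against dextrose without amino acids (26), from 1 to 5 for ethanol (4) and 2 to 10 for galactose (5) against dextrose with all amino acids, from 0 to 1 for ethanol against galactose (0) and from 7 to 13 for the amino acid effect against ethanol (12). Late counts ranged from 0 to 3 in dextrose without amino acids (1), from 11 to 24 for ethanol (21) and 11 to 26 for galactose (21) against it, from 0 to 13 between ethanol and galactose (5), from 0 to 10 for amino acids in galactose (1) and from 0 to 6 for the amino acid effect against galactose (0, and 6 without Sgal). Course counts ranged from 6 to 27 in dextrose without amino acids (22), from 9 to 21 for ethanol against dextrose with all amino acids (14, and 21 without Sgal+aa or Sgal+aa+ino), from 0 to 5 between ethanol and galactose (1), from 1 to 11 for amino acids in dextrose (3), from 0 to 1 for amino acids in galactose (0), and from 0 to 6 and from 0 to 3 for the amino acid effect against ethanol (4) and galactose (0, and 3 without Sgal+aa). SD+aa could not be left out of the comparisons that need it.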
